A study of Mus musculus with 24 samples.

Results

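The genes described here serve cholesterol: 31 genes, taken by name, for sensing sterols, making cholesterol from acetyl-CoA, moving and esterifying it inside the cell, and exporting it. Of these, 30 had a row among the 24825 rows of the expression table, and Hmgcs1, the enzyme of an early mevalonate step, is not analysed here. All 30 passed the filter on low values (at least 1 FPKM in at least 3 of 24 libraries), which left 12640 genes to test, all with limma and p-values adjusted over all of them. FPKM counts the fragments of a gene, divided by its length in kilobases and by each 1000000 fragments of the library. No cell-surface lipoprotein receptor is among the 31, so uptake enters only through a separate list of other sterol genes given further on. Abcg1 reached 1 FPKM in 0 of 12 day 0 libraries and 11 of 12 day 7 libraries, so it passed the filter only through day 7. Its rise over differentiation, kept in the counts given further on, is thus not independent of the filter. Nr1h3 reached 1 FPKM in 6 day 0 and 12 day 7 libraries and would have passed on either day.

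RNA was sequenced from cells of the stromal vascular fraction of mouse inguinal fat, which mixes adipocyte precursors with other cells. The cells came from mice homozygous for a floxed Nfia allele (exon 2 between loxP sites), were immortalised with SV40 large T antigen, and in every group grew with 10% fetal bovine serum. The ctrl cells received an empty retrovirus, Cre cells a retrovirus for Cre recombinase, and Cre + NFIA cells in addition a retrovirus for full-length NFIA with a FLAG tag. Cre + NFIA Δpro#3 cells in addition to Cre received one for tagged NFIA without pro#3, the last part of its C-terminal proline-rich domain. NFIA, a DNA-binding protein of the nuclear factor I type, is put back into Cre cells in either form to ask what each restores. RNA was taken at confluence (day 0) and after differentiation towards thermogenic adipocytes (day 7), 3 libraries a group. Differentiation began with isobutylmethylxanthine, indomethacin, dexamethasone, insulin, T3 and rosiglitazone for 48 hours, after which insulin, T3 and rosiglitazone stayed in the medium. The labels do not say whether the 3 replicates are separate cultures, so the p-values measure only the spread between these libraries.

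Cholesterol is built in the endoplasmic reticulum. Acetyl-CoA is condensed and reduced to mevalonate, mevalonate is turned into isoprenoid units, these are joined into squalene, and squalene is closed into lanosterol, which is trimmed and reduced to cholesterol. SREBP-2, encoded by Srebf2, drives the genes of these enzymes when sterol in the membrane is low: SCAP then escorts it to the Golgi for cleavage, and the INSIG proteins hold it back when sterol is high. When oxysterols accumulate, the nuclear receptors LXRα (Nr1h3) and LXRβ (Nr1h2) raise the exporters ABCA1 and ABCG1. Fat cells keep a large store of unesterified cholesterol in and around the lipid droplet.

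Depth in reads, in units of 1000000, was between 7.733 and 13.088 for day 0 libraries and between 9.153 and 14.622 for day 7 libraries. The member with the fewest reads was Abcg1, with 8 in 1 day 0 library. The summed level of 9 adipocyte markers was 75.3 to 123 FPKM at day 0. At day 7 it was 21699 to 25163 in ctrl, 4416 to 9414 in Cre, 20328 to 20570 in Cre + NFIA and 864 to 2146 in Cre + NFIA Δpro#3. Among Cre day 7 libraries replicate 3 was the lowest. In bulk RNA, fewer adipocytes and less RNA per adipocyte cannot be told apart, and the part of adipocyte number in the differences that follow was not tested. The whole-gene level of Nfia, of which only exon 2 is floxed, was not lower in the day 7 libraries labelled Cre: it was 9.81, 9.15 and 9.70 FPKM in ctrl and 10.7, 10.1 and 9.49 in Cre (log2 change 0.07 ± 0.072 SE, adjusted p = 0.426). In these values the directions given for Cre rest on the label. In Cre + NFIA and Cre + NFIA Δpro#3 day 7 libraries Nfia, transgene reads included, was at 83.9 to 111 FPKM.

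Most of the pathway rose as ctrl cells differentiated. From day 0 to day 7, 21 members rose and 7 fell of 30, beside 32.9% of all genes higher and 38.1% lower. The median member changed by 0.68 on the log2(FPKM + 1) scale, the scale of every log2 change given here, beside -0.053 for all genes tested. Of the 18 synthesis enzymes 16 rose, Ggps1 fell and Mvk had 0.017 (adjusted p = 0.859). The rises ran from 0.49 for Tm7sf2 to 2.5 for Pmvk, and Insig1, the sterol-responsive brake on SREBP-2, went up by 3.92 ± 0.18 (SE, adjusted p = 8.38e-14). Nr1h3 rose by 5.35 ± 0.20 (SE, adjusted p = 3.53e-15) and Abcg1 by 2.69 ± 0.12 (SE, adjusted p = 5.33e-14). The fall was -1.23 for Soat1, which esterifies cholesterol, and -1.13 for Insig2. Rises of at least 3-fold on that scale, which is where every 3-fold threshold here was set, were called for 10 members, beside 5.64% of all genes. By the ratio of mean FPKM Mvd, at 3.07-fold, passed 3 as well.

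**Figure D1:**
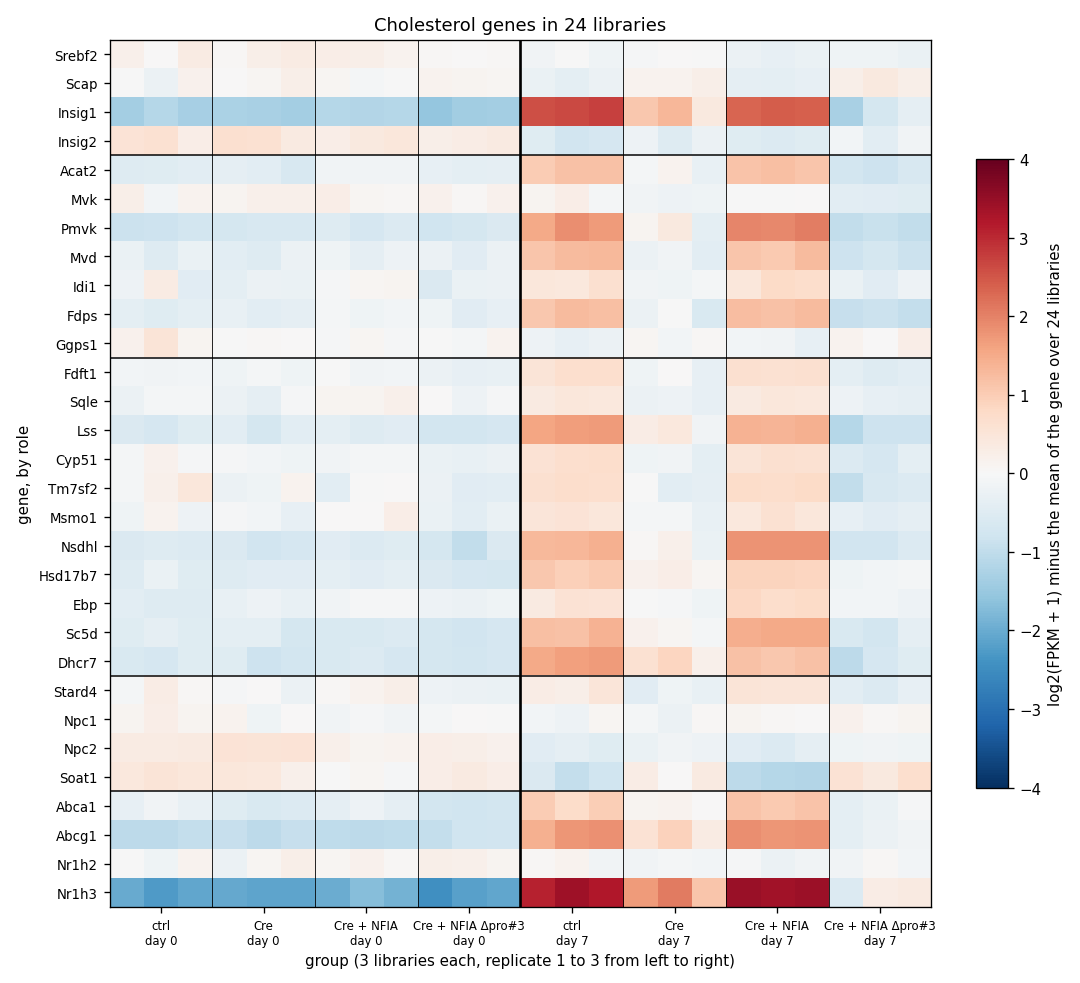
Colour gives log2(FPKM + 1) of each of 30 genes (rows, by role) in each of 24 libraries (columns, 3 per group), minus the mean of the gene over all libraries. Day 7 ctrl and Cre + NFIA libraries are red for most synthesis enzymes, Insig1, Abca1, Abcg1 and Nr1h3, while Soat1 is blue in both.

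At day 7 the cells labelled Cre held less of the pathway than ctrl. Of 30 members 22 were lower and 5 higher, beside 22.7% and 36.1% of all genes, and the median member differed by -0.80 (all genes 0.091). All synthesis enzymes tested differed: 17 were lower and Ggps1 was higher. The lowest were Insig1 at -1.70 ± 0.24 (SE, adjusted p = 7.32e-05), Pmvk at -1.66 ± 0.15 (SE, adjusted p = 3.45e-06) and Nr1h3 at -1.60 ± 0.25 (SE, adjusted p = 0.00016), the 3 members lower by at least 3-fold (1.27% of all genes). Soat1 was higher by 1.0 ± 0.11 (SE, adjusted p = 1.47e-05), and Scap, Insig2, Ggps1 and Npc2 were higher by 0.23 to 0.46. Dividing the libraries by median-of-ratios size factors moved the median of all genes by -0.11, from 0.091 to -0.021, and turned the split of all calls from 4563 higher and 2867 lower to 3398 and 3948. The same scaling gave 2 members higher and 23 lower, with a member median of -0.93, and Insig2 and Ggps1 were then not called. Their calls were also lost without any 1 of 4 libraries (ctrl replicate 2 or 3, Cre replicate 1 or 3).

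With full-length NFIA most of the pathway was higher again. In Cre + NFIA against Cre at day 7, 22 members were higher and 4 lower, beside 27.0% and 35.9% of all genes, with a median of 0.80 (all genes -0.057). Of the 18 synthesis enzymes 17 were higher, and Ggps1 had -0.19 (adjusted p = 0.0788). Pmvk at 1.93 ± 0.15 (SE, adjusted p = 5.53e-07), Nsdhl at 1.80 ± 0.10 (SE, adjusted p = 6.03e-08) and Nr1h3 at 1.78 ± 0.25 (SE, adjusted p = 5.44e-05) were higher by at least 3-fold, as were 2.13% of all genes. The 4 lower members were Soat1 at -1.34 ± 0.11 (SE, adjusted p = 8.5e-07), Scap at -0.52, Srebf2 at -0.27 and Npc2 at -0.25. With median-of-ratios scaling, 53.7% rather than 43.0% of all calls were higher, and the members were 23 higher and 3 lower. Cre against ctrl and Cre + NFIA against Cre share the Cre libraries, so their opposite signs are not independent of each other.

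Cells with NFIA that lacks the pro#3 part of the proline-rich domain did not show these rises. In Cre + NFIA Δpro#3 against Cre 0 members were higher and 18 lower, beside 7.70% and 10.0% of all genes, with a median of -0.28 (all genes 0.018). In limma 2 members were higher at an unadjusted p under 0.05, and limma voom on reads recovered from the FPKM gave 2 and 19 at that unadjusted level. Soat1 was called higher under 8 of 17 alternatives, limma voom and quantile normalization among them, with adjusted p from 0.0168 to 0.232 over the 17. Of the synthesis enzymes 13 of 18 were lower, led by Dhcr7 at -1.29 ± 0.16 (SE, adjusted p = 0.000479) and Lss at -1.11 ± 0.13 (SE, adjusted p = 0.000369). Insig1 at -1.73 ± 0.24 (SE, adjusted p = 0.000789) and Nr1h3 at -1.59 ± 0.25 (SE, adjusted p = 0.0014) were lower by at least 3-fold, beside 0.593% of all genes. The 12 members not called included Soat1, at 0.33 with an adjusted p of 0.0616, and the other 3 genes of transport and esterification. Leaving out 1 library gave 12 (without Cre replicate 1) to 20 calls (without Cre replicate 3), and Srebf2, Fdft1, Cyp51, Tm7sf2 and Abca1 were not called without Cre + NFIA Δpro#3 replicate 1.

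**Figure D2:**
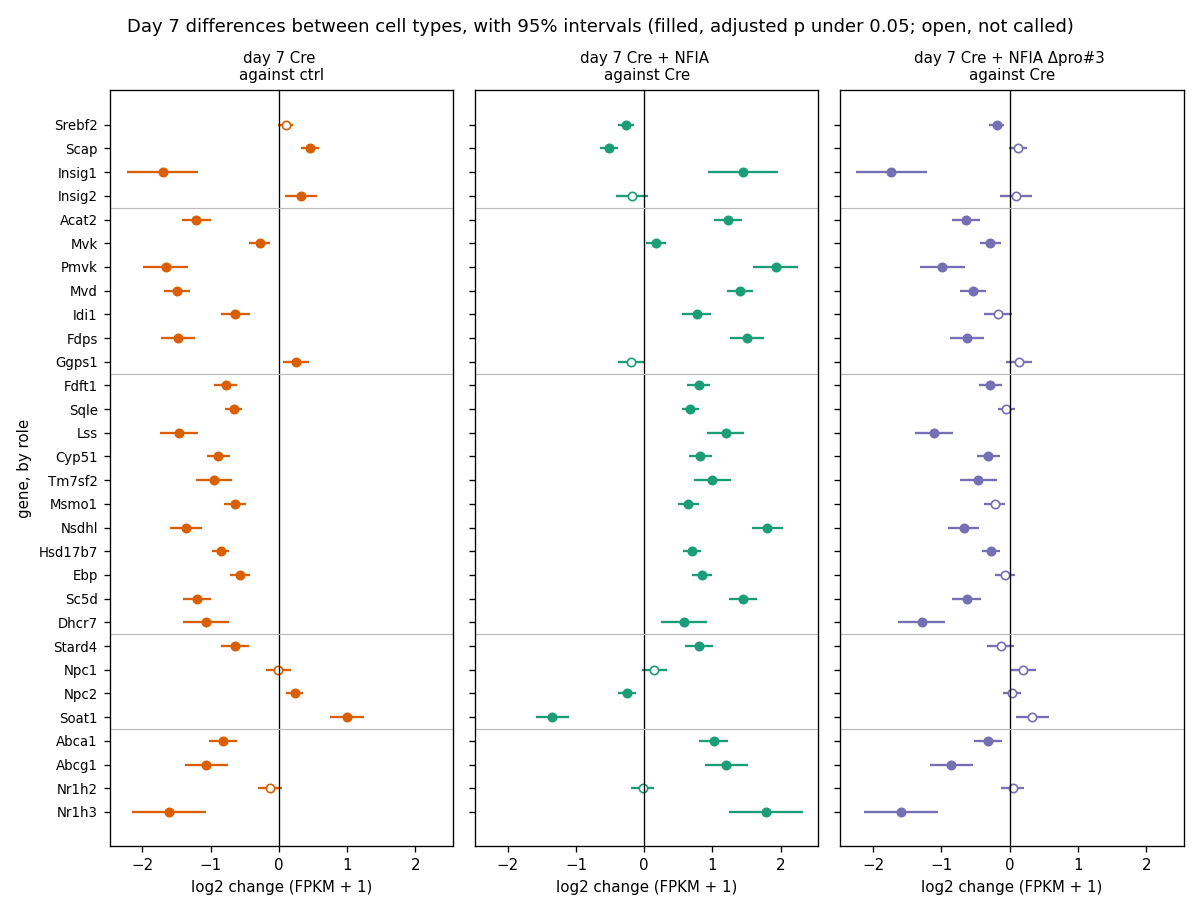
Points give the log2 change of each of 30 genes (rows, by role) at day 7 in 3 comparisons, bars the 95% interval from limma, filled points an adjusted p under 0.05. Pmvk sits at -1.66, 1.93 and -0.99 from left to right, and Soat1 at 1.0, -1.34 and 0.33.

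The 2 forms of NFIA were then compared directly. Cre + NFIA Δpro#3 against Cre + NFIA at day 7 had 22 members lower and 5 higher, beside 28.9% and 40.4% of all genes, with a median of -1.03 (all genes 0.097). Lower by at least 3-fold on the log2(FPKM + 1) scale were 11 members, beside 4.60% of all genes: Insig1, Acat2, Pmvk, Mvd, Fdps, Lss, Nsdhl, Sc5d, Dhcr7, Abcg1 and Nr1h3. Tm7sf2, at -1.46 on the log2(FPKM + 1) scale, was 3.20-fold lower in mean FPKM. Nr1h3 differed by -3.37 ± 0.25 (SE, adjusted p = 1.69e-07), Insig1 by -3.18 ± 0.24 (SE, adjusted p = 1.87e-07) and Pmvk by -2.91 ± 0.15 (SE, adjusted p = 1.4e-08). Soat1, at 1.68 ± 0.11 (SE, adjusted p = 7.94e-08), was the member higher by at least 3-fold (2.33% of all genes). Median-of-ratios scaling shifted the median of all genes by -0.10 here and gave 3 members higher and 22 lower.

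Few members were called between cells with full-length NFIA and ctrl cells at day 7. In Cre + NFIA against ctrl 3 members were called, beside 18% of all genes in either direction: Nsdhl at 0.44 ± 0.10 (SE, adjusted p = 0.0132), Ebp at 0.28 ± 0.066 (SE, adjusted p = 0.0138) and Srebf2 at -0.16 ± 0.051 (SE, adjusted p = 0.0451). The median member differed by 0.022, and all genes by 0.020. The intervals limit how far the others could differ, given the spread pooled over all 4 cell types at day 7. Insig1 had -0.26 with a 95% interval of -0.78 to 0.26, Fdps 0.031 with -0.22 to 0.28, and Dhcr7 -0.48 with -0.83 to -0.14. Though not called, Insig1 was lower in every Cre + NFIA library (510 to 546 FPKM) than in every ctrl library (600 to 665 FPKM). Pmvk, Lss, Hsd17b7, Sc5d, Dhcr7, Stard4, Soat1 and Abca1, also not called, did not overlap between these groups either. The share of all genes without overlap was not counted. At an unadjusted p under 0.05 limma had 3 members higher and 4 lower, and limma voom 5 and 5. Without ctrl day 7 replicate 1 limma called 0 members (6 at an unadjusted p under 0.05), and without Cre + NFIA day 7 replicate 1 it called 1.

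Ordered by their libraries at day 7, 19 members followed 1 pattern: every ctrl and Cre + NFIA library lay above every Cre library, and every Cre library above every Cre + NFIA Δpro#3 library. Over all genes 9.03% did so. The 19 were 15 synthesis enzymes, Insig1, Abca1, Abcg1 and Nr1h3. Soat1 and Scap had the reverse order, as did 10.0% of all genes. Ggps1, Sqle and Ebp were the synthesis enzymes outside the pattern.

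Before differentiation between 1 and 8 members were called in each comparison, and the called log2 changes were no larger than 0.45 in size. At day 0 Cre against ctrl had 3 members called (3.33% of all genes in either direction): Ebp 0.22 ± 0.047 (SE, adjusted p = 0.0373), Npc2 0.20 ± 0.036 (SE, adjusted p = 0.0191) and Abca1 -0.30 ± 0.069 (SE, adjusted p = 0.0432). The share of all calls that were higher was 48.9% as deposited, 38.8% with size factors and 37.4% after quantile normalization, which called only Abca1 of the members. Without Cre day 0 replicate 2 or 3 limma called 0 (4 at an unadjusted p under 0.05 in each case), and without ctrl day 0 replicate 2 or 3 it called 1. Cre + NFIA against Cre had 7 (27.6%): Acat2, Fdps, Sqle, Ebp and Abca1 were higher by 0.20 to 0.36, Soat1 was lower at -0.35 and Npc2 at -0.38. Cre + NFIA Δpro#3 against Cre had 1 (18.3%), Npc2 at -0.32 ± 0.036 (SE, adjusted p = 0.000277), and without Cre day 0 replicate 2 or 3 the count was 2 or 3. Cre + NFIA against ctrl had 8 (33.1%), with Acat2, Pmvk, Fdps, Sqle and Ebp higher by 0.22 to 0.41 and Npc1, Npc2 and Soat1 lower, and without Cre + NFIA day 0 replicate 1 or 3 it had 5. Between the 2 forms of NFIA 6 members were called (10.1%): Insig1, Fdft1, Msmo1, Stard4 and Abca1 were lower in Cre + NFIA Δpro#3, from -0.19 to -0.45, and Soat1 was higher at 0.27. There the median member differed by -0.18 (all genes -0.0020), 8 of 30 members and 2 of 18 enzymes had a positive difference, 15 members were lower and 2 higher at an unadjusted p under 0.05, and limma voom called 9. Leaving out 1 library gave 1 to 4 calls, the fewest without Cre + NFIA replicate 3 and the most without Cre + NFIA replicate 2.

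The day 7 rise of the pathway was then measured within each cell type. In Cre + NFIA 21 members rose and 6 fell, beside 31.8% and 38.3% of all genes, with a median of 0.78 (all genes -0.048). In Cre 12 rose and 4 fell, beside 30.0% and 21.6%, with a median of 0.064 (all genes 0.055). In Cre + NFIA Δpro#3 6 rose and 9 fell, beside 24.5% and 17%, with a median of -0.11 (all genes 0.047). Rises of at least 3-fold on the log2(FPKM + 1) scale were called for 8 members in Cre + NFIA (5.78% of all genes), for Insig1 and Nr1h3 in Cre (2.26%), and for Nr1h3 in Cre + NFIA Δpro#3 (1.14%). In Cre the ratio of mean FPKM of Abcg1 was 11.3, from 0.243 to 2.73 FPKM, with a log2(FPKM + 1) change of 1.57 ± 0.12 (SE, adjusted p = 1.17e-09). In Cre + NFIA Δpro#3 1 synthesis enzyme rose, Hsd17b7 at 0.53 ± 0.064 (SE, adjusted p = 9.63e-07), and 6 fell: Fdps -0.59, Mvk -0.59, Mvd -0.48, Acat2 -0.37, Cyp51 -0.28 and Sqle -0.23. Scaling moved the balance of all calls, and the median of all genes by -0.10 in Cre: 58.1% were higher in Cre as deposited and 43.2% after quantile normalization, and in Cre + NFIA Δpro#3 59.1% and 48.0%. Quantile normalization gave 12 members higher and 6 lower in Cre, and 6 and 12 in Cre + NFIA Δpro#3.

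**Figure D3:**
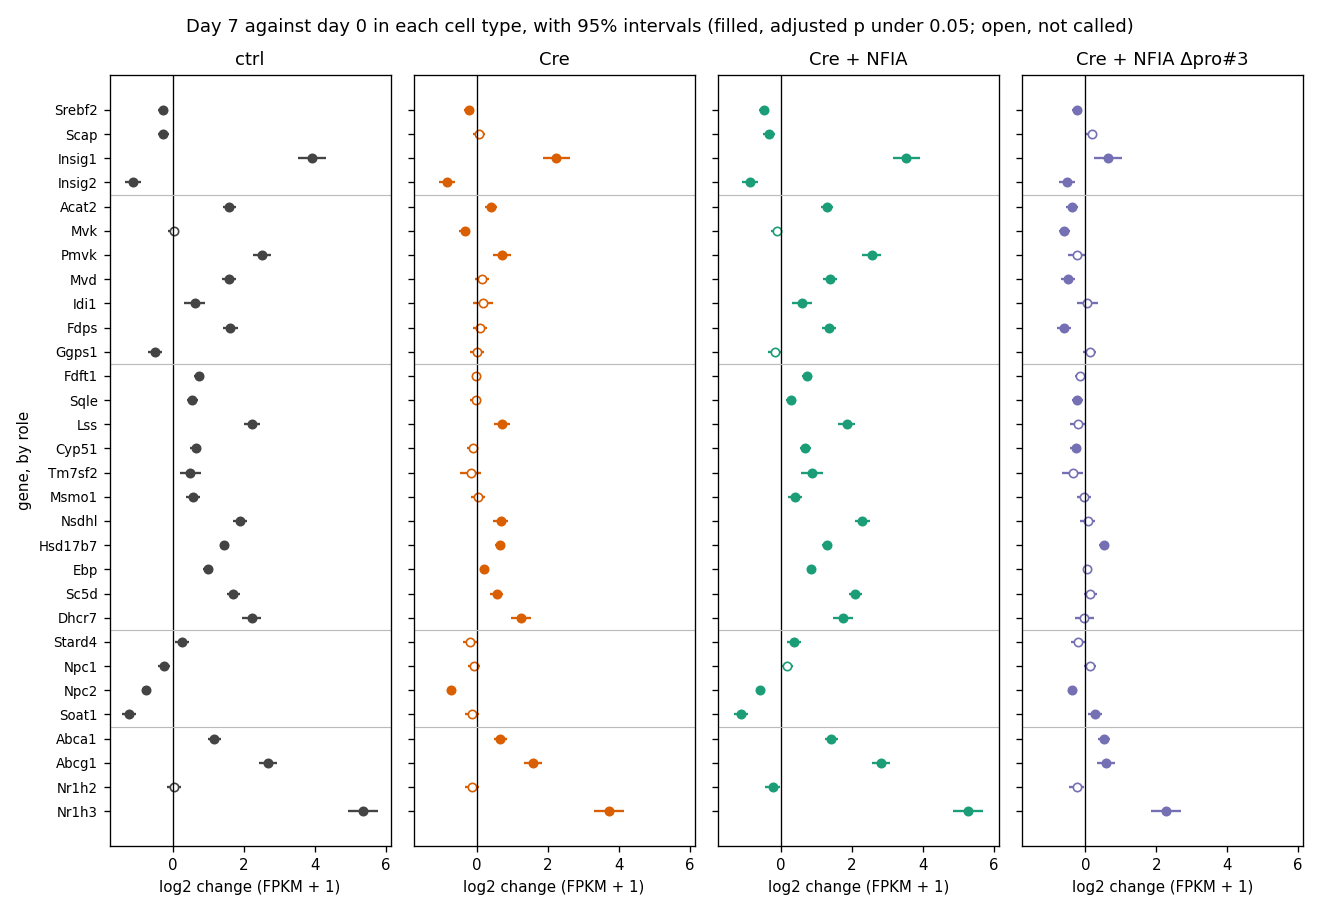
Points give the log2 change from day 0 to day 7 of each of 30 genes (rows, by role) in the 4 cell types, bars the 95% interval from limma, filled points an adjusted p under 0.05. Pmvk sits at 2.5 in ctrl, 0.70 in Cre, 2.55 in Cre + NFIA and -0.24 in Cre + NFIA Δpro#3.

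Interaction terms tested whether the change over differentiation differed between cell types. Between Cre and ctrl 24 members differed, 3 with a more positive and 21 with a more negative change in Cre, beside 29.7% and 19.5% of all genes. Between Cre + NFIA and Cre 23 differed, 20 more positive and 3 more negative in Cre + NFIA (18.8% and 30.1%). Between Cre + NFIA Δpro#3 and Cre 13 differed, 2 more positive and 11 more negative in the mutant (7.79% and 10.4%). Median-of-ratios scaling moved the higher share of all calls from 60.3% to 46.3% in the first and from 38.5% to 52.0% in the next, with shifts of -0.11 and 0.11 in the median of all genes, while the members stood at 2 and 22 and at 24 and 1. Quantile normalization moved it from 42.9% to 53.4% in the last, with the members again at 2 and 11.

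Because many members moved together, their promoters were read from RefSeq on GRCm38.p6, a later build than that of the expression table. Of the 31 genes 25 had an entry, with 32 start sites, each a window from 250 bases before to 50 after the start, and Sqle, Fdps, Fdft1, Stard4, Abcg1 and Npc1 had none. Motifs were searched on both strands. The CCAAT box of NF-Y, a partner of SREBP, was in 20 of the 32 windows (62.5%), against 37.408% of 32851 windows of all genes, and the GGGCGG box of Sp1 was in 24 (75.0%), against 35.658%. The E-box CACGTG was in 7 windows (21.9%, all genes 7.15%), of Abca1, Dhcr7, Hsd17b7, Insig1, Sc5d and Scap. The sterol element written as TCACNCCAC, with N for any base, was in the window of Hmgcs1 alone (all genes 1.242%). Neither the full nuclear factor I palindrome nor the PPAR direct repeat with a spacer of 1 base was in any of the 32 windows, and all genes held them in 0.037% and 0.381%. Both are so rare over all genes that 32 windows could hardly hold either, and nothing is read from their absence. The sterol element in this exact form is rare over all genes too, so nothing is read from its absence from the other windows. The counts of every motif are matches of letters in short windows and not sites shown to be bound.

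The 150 bases before the start are printed for 5 members, chosen to show the box arrangement in genes that moved with the enzymes (Insig1, Lss, Nsdhl, Sc5d) and in 1 that did not (Srebf2). Each reads 5′ to 3′ on the strand of the gene, and capitals mark the NF-Y box, the Sp1 box and the E-box, on either strand.
Insig1 (chr5:28071262-28071411, + strand): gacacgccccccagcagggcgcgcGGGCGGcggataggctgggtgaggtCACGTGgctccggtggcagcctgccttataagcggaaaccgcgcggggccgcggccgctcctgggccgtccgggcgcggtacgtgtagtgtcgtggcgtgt
Lss (chr10:76531455-76531604, + strand): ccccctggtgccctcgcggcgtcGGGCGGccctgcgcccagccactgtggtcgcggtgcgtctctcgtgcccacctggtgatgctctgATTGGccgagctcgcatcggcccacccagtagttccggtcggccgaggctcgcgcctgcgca
Nsdhl (chrX:72918371-72918520, + strand): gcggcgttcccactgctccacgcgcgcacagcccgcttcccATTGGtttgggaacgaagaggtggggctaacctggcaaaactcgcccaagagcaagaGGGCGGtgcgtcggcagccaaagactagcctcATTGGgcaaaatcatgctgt
Sc5d (chr9:42264301-42264450, - strand): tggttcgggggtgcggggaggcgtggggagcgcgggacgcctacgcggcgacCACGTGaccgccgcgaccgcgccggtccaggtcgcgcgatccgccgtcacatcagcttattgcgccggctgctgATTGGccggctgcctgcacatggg
Srebf2 (chr15:82147119-82147268, + strand): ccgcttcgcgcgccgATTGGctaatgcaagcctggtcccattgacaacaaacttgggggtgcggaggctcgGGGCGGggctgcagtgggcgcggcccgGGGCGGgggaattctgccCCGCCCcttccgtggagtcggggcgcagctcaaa
Insig1 holds 1 Sp1 box and 1 E-box in this stretch, Lss 1 NF-Y box and 1 Sp1 box, Nsdhl 2 NF-Y boxes and 1 Sp1 box, Sc5d 1 NF-Y box and 1 E-box, and Srebf2 1 NF-Y box and 3 Sp1 boxes. Further boxes lay in the searched windows outside this stretch, among them an NF-Y box of Insig1 from base -216 and an Sp1 box of Sc5d from base -205. Boxes of these kinds were thus present in all 5, and their part in the changes was not tested.

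Sterol sensing divided by gene. Srebf2 (chromosome 15 from 81977696 to 82035806 on NCBIM37, the assembly named mm9) encodes SREBP-2, the main activator of the pathway. At day 0 its level was 72.7, 63.7 and 79.1 FPKM in ctrl, 66.2, 75.6 and 79.7 in Cre, 76.3, 74.5 and 70.7 in Cre + NFIA and 65.8, 64.1 and 65.6 in Cre + NFIA Δpro#3. At day 7 it was 56.9, 62.3 and 56.1 FPKM in ctrl, 61.6, 63.6 and 63.1 in Cre, 53.3, 50.3 and 52.5 in Cre + NFIA and 55.7, 56.3 and 52.6 in Cre + NFIA Δpro#3. Day 7 levels in all 4 types lay within 50.3 to 63.6 FPKM. Against Cre, every library was lower in Cre + NFIA (-0.27) and also in Cre + NFIA Δpro#3 (-0.19, limma, adjusted p = 0.0231). The call in the mutant was lost without its replicate 1. Libraries of the 2 forms of NFIA overlapped (0.076, limma, adjusted p = 0.205). Over differentiation Srebf2 fell in all 4 types, with log2 changes of -0.29 in ctrl, -0.23 in Cre, -0.50 in Cre + NFIA and -0.24 in Cre + NFIA Δpro#3, while 16 of 18 synthesis enzymes rose in ctrl and 16 in Cre + NFIA.

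Scap, the escort of SREBP-2, was at 28.7, 24.4 and 32.1 FPKM in ctrl, 29, 30.04 and 34.2 in Cre, 30.5, 27.1 and 28.5 in Cre + NFIA and 31.4, 31.3 and 30.5 in Cre + NFIA Δpro#3 at day 0. Its day 7 levels were 23.8, 21.9 and 24 FPKM in ctrl, 31.4, 31.9 and 33.6 in Cre, 22.4, 21.5 and 22.9 in Cre + NFIA and 33.6, 38.3 and 34 in Cre + NFIA Δpro#3. The day 7 ctrl and Cre + NFIA libraries were all below the Cre libraries, a direction opposite to that of the enzymes. Insig1 (chromosome 5 from 28397952 to 28405201) encodes an anchor for SCAP and is itself a target of SREBP-2. Its day 0 level was 38.2, 45.1 and 38.9 FPKM in ctrl, 41, 40.5 and 38.9 in Cre, 44.6, 44.4 and 45.1 in Cre + NFIA and 33.9, 37.3 and 38.1 in Cre + NFIA Δpro#3. Day 7 brought it to 600.3, 628 and 665 FPKM in ctrl, 215, 254 and 132 in Cre, 510.1, 546 and 526 in Cre + NFIA and 39.8, 61.1 and 77.3 in Cre + NFIA Δpro#3. None of the 4 day 7 groups overlapped, Cre replicate 3 was the lowest of its group, and the mean in ctrl was 15.5 times its day 0 mean. Insig2, the other anchor, stood at 34.2, 35.8 and 28.1 FPKM in ctrl, 36.8, 35.4 and 29.5 in Cre, 28, 30.8 and 32 in Cre + NFIA and 27.1, 28.3 and 30.04 in Cre + NFIA Δpro#3 at day 0. After differentiation its values were 16.1, 13 and 14.1 FPKM in ctrl, 19.7, 15.8 and 19.6 in Cre, 16.1, 15.6 and 16.4 in Cre + NFIA and 21.5, 16.8 and 21 in Cre + NFIA Δpro#3. It fell in every cell type, with log2 changes from -1.13 in ctrl to -0.51 in Cre + NFIA Δpro#3, while Insig1 rose in every type, from 0.64 in Cre + NFIA Δpro#3 to 3.92 in ctrl. The rise of Insig1 in the mutant was not called without its day 7 replicate 3. The higher Insig2 in Cre than in ctrl (0.33 ± 0.11 SE, adjusted p = 0.0202) came with overlapping libraries.

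**Figure D4:**
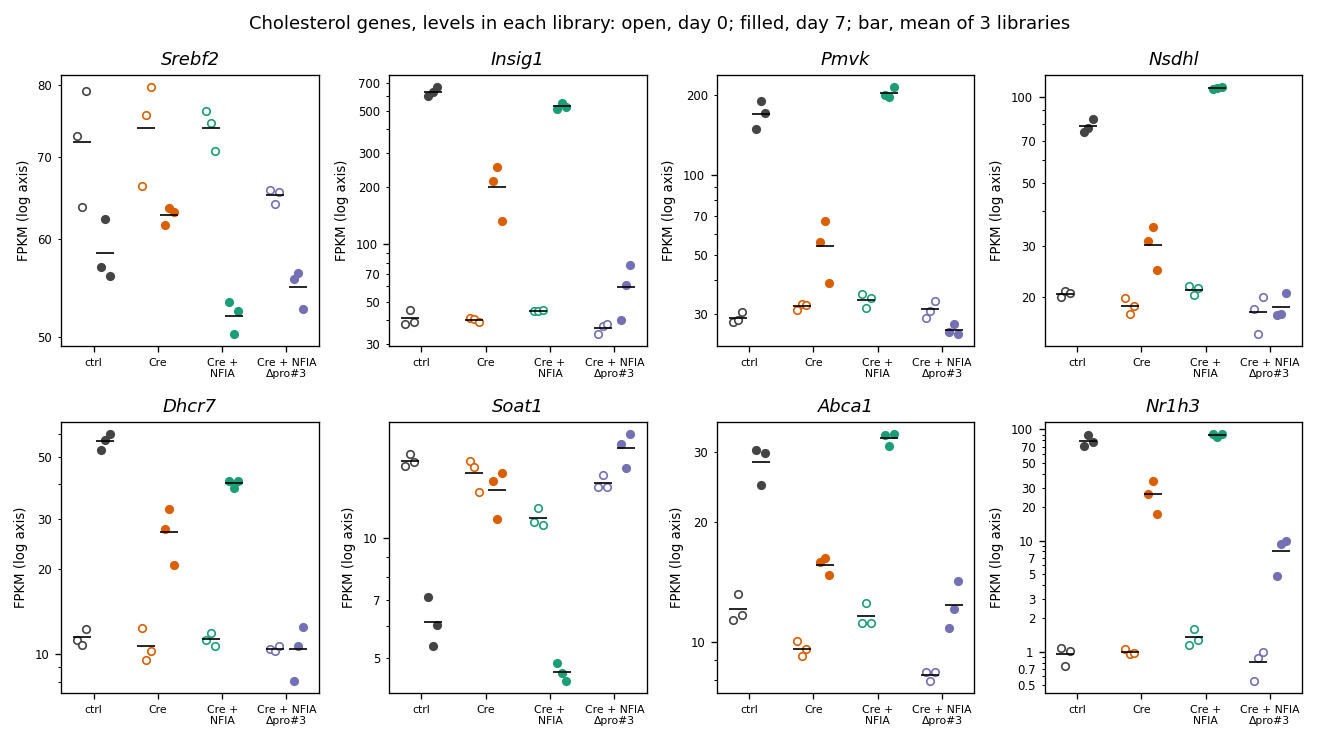
Each point is 1 library: FPKM on a log axis by cell type for 8 genes, open at day 0 and filled at day 7, with a bar at the mean of 3. Insig1, Pmvk, Nsdhl, Dhcr7, Abca1 and Nr1h3 are high in ctrl and Cre + NFIA at day 7, lower in Cre and lowest in Cre + NFIA Δpro#3, while Soat1 shows the reverse and Srebf2 varies little.

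Among the mevalonate and isoprenoid steps, 6 of 7 enzymes were lower in Cre than ctrl and 6 of 7 higher in Cre + NFIA than Cre. Pmvk, phosphomevalonate kinase (chromosome 3 from 89263040 to 89272935), was at 27.8, 28.5 and 30.5 FPKM in ctrl, 31.1, 32.5 and 32.4 in Cre, 35.6, 31.4 and 34.5 in Cre + NFIA and 28.9, 30.7 and 33.6 in Cre + NFIA Δpro#3 at day 0. It stood at 148, 189 and 169.9 FPKM in ctrl, 55.7, 66.8 and 39 in Cre, 199, 196 and 213 in Cre + NFIA and 25.5, 27.4 and 25.2 in Cre + NFIA Δpro#3 at day 7. The 4 groups did not overlap at day 7, and the mutant libraries were below their own day 0 libraries although that change was not called (-0.24, adjusted p = 0.121). Mvd, which decarboxylates diphosphomevalonate, was at 26.2, 21.9 and 26.5 FPKM in ctrl, 23.5, 22.2 and 27.3 in Cre, 28.3, 24.6 and 28 in Cre + NFIA and 26.9, 23.3 and 26.9 in Cre + NFIA Δpro#3 at day 0. Day 7 libraries gave 69.7, 79 and 80.4 FPKM in ctrl, 27.3, 29.2 and 23.5 in Cre, 70.5, 67.3 and 78.2 in Cre + NFIA and 17.7, 19.3 and 17.3 in Cre + NFIA Δpro#3. Cre differed from ctrl by -1.49 ± 0.087 (SE, adjusted p = 3.57e-07). Fdps, the farnesyl diphosphate synthase whose product feeds both squalene and protein prenylation, was at 133, 124 and 133 FPKM in ctrl, 142, 131 and 138 in Cre, 167, 156 and 163 in Cre + NFIA and 154, 129 and 139.5 in Cre + NFIA Δpro#3 at day 0. Its day 7 libraries stood at 374, 426 and 408 FPKM in ctrl, 149, 174 and 116 in Cre, 418, 394 and 422 in Cre + NFIA and 93.1, 96.2 and 89.4 in Cre + NFIA Δpro#3. It had the highest level of the 18 enzymes in every day 7 group, and its mutant libraries fell below their day 0 level.

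Acat2 (acetyl-CoA acetyltransferase, the condensing step before mevalonate, not the sterol acyltransferase of the same nickname) differed by -1.21 ± 0.094 (SE, adjusted p = 1.34e-06) in Cre against ctrl and 1.23 ± 0.094 (SE, adjusted p = 4.34e-07) in Cre + NFIA against Cre. Idi1, an isomerase of the isoprenoid units, differed by -0.64 and 0.77 in these comparisons, and Mvk, mevalonate kinase, by -0.28 and 0.17. The second Mvk call was lost without any 1 of the 6 libraries. Ggps1 makes geranylgeranyl diphosphate, on the branch away from sterols. Its day 0 values were 6.95, 8.95 and 6.54 FPKM in ctrl, 5.92, 6.19 and 6.12 in Cre, 5.86, 6.33 and 5.86 in Cre + NFIA and 5.96, 5.67 and 6.73 in Cre + NFIA Δpro#3. Its day 7 values were 5.16, 4.63 and 4.99 FPKM in ctrl, 6.37, 5.52 and 6.21 in Cre, 5.47, 5.43 and 4.63 in Cre + NFIA and 6.74, 6.06 and 7.41 in Cre + NFIA Δpro#3. Unlike the other enzymes it fell during ctrl differentiation (-0.51 ± 0.094 SE, adjusted p = 5.93e-05) and was higher in Cre than in ctrl (0.25 ± 0.087 SE, adjusted p = 0.0288).

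All 11 genes for making squalene and turning it into cholesterol rose in ctrl differentiation. They were lower in Cre than ctrl and higher in Cre + NFIA than Cre. Nsdhl, which takes part in removing the C4 methyl groups (chromosome X from 70163896 to 70203853), was at 20.03, 20.9 and 20.6 FPKM in ctrl, 19.8, 17.4 and 18.6 in Cre, 21.7, 20.3 and 21.5 in Cre + NFIA and 18.1, 14.9 and 19.9 in Cre + NFIA Δpro#3 at day 0. The day 7 libraries read 75.3, 77.5 and 83.2 FPKM in ctrl, 31.2, 35 and 24.7 in Cre, 106, 107 and 108 in Cre + NFIA and 17.3, 17.5 and 20.6 in Cre + NFIA Δpro#3. Cre + NFIA was above ctrl in every library, by 1.36-fold in the means. Lss closes squalene epoxide into lanosterol, and its day 0 level was 19.9, 19 and 21.4 FPKM in ctrl, 22.6, 18.2 and 22.3 in Cre, 22.9, 20.9 and 21.8 in Cre + NFIA and 17.8, 17.7 and 18.9 in Cre + NFIA Δpro#3. At day 7 that became 92.1, 99.9 and 101 FPKM in ctrl, 37.4, 41.2 and 27.5 in Cre, 80.8, 79.2 and 82.6 in Cre + NFIA and 13.3, 16.9 and 16.8 in Cre + NFIA Δpro#3. Dhcr7 reduces the last precursor on 1 branch to cholesterol, and it stood at 11.2, 10.8 and 12.3 FPKM in ctrl, 12.4, 9.51 and 10.2 in Cre, 11.3, 11.9 and 10.7 in Cre + NFIA and 10.4, 10.3 and 10.7 in Cre + NFIA Δpro#3 at day 0. Its values at day 7 were 52.9, 57.2 and 60.2 FPKM in ctrl, 27.7, 32.7 and 20.6 in Cre, 41.1, 38.8 and 40.9 in Cre + NFIA and 8.06, 10.7 and 12.5 in Cre + NFIA Δpro#3. Cre + NFIA lay below ctrl in every library (-0.48, adjusted p = 0.0527), and the mutant libraries at day 7 overlapped their day 0 libraries (-0.024, adjusted p = 0.906).

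The other 8 were all lower in Cre than in ctrl. In Cre against ctrl Sc5d, a sterol desaturase, differed by -1.20, Tm7sf2, a sterol reductase, by -0.95, Cyp51, the lanosterol demethylase, by -0.89 and Hsd17b7, a ketosteroid reductase, by -0.85. Fdft1, squalene synthase, differed by -0.78, Sqle, squalene epoxidase, by -0.66, Msmo1, the C4 methyl oxidase, by -0.64 and Ebp, the sterol isomerase, by -0.57. Adjusted p lay between 7.1e-07 for Hsd17b7 and 4.2e-05 for Tm7sf2. Sc5d rose most of the 8 with full-length NFIA, at 1.45 ± 0.095 (SE, adjusted p = 1.4e-07). In Cre + NFIA Δpro#3 against Cre, Msmo1 (-0.22, adjusted p = 0.0528), Sqle (-0.047, adjusted p = 0.634) and Ebp (-0.073, adjusted p = 0.502) were not called.

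Transport and esterification did not move as 1 group. Soat1 (chromosome 1 from 158358239 to 158404459) esterifies cholesterol for storage. At day 0 its libraries stood at 15.3, 16.3 and 15.6 FPKM in ctrl, 15.7, 15.2 and 13.1 in Cre, 11, 12 and 10.8 in Cre + NFIA and 13.5, 14.5 and 13.5 in Cre + NFIA Δpro#3. Its day 7 levels were 7.10, 5.34 and 6.03 FPKM in ctrl, 14, 11.2 and 14.6 in Cre, 4.85, 4.56 and 4.37 in Cre + NFIA and 17.4, 15.1 and 18.4 in Cre + NFIA Δpro#3. No ctrl or Cre + NFIA library was above 7.10 FPKM at day 7, none of Cre or Cre + NFIA Δpro#3 was below 11.2, and the fall over differentiation was called in ctrl (-1.23) and Cre + NFIA (-1.13), with -0.14 (adjusted p = 0.248) in Cre and a rise of 0.27 (adjusted p = 0.0282) in the mutant. Npc2, which hands cholesterol out of the lysosome, was at 237, 237 and 241 FPKM in ctrl, 274, 271 and 276 in Cre, 218, 205 and 206 in Cre + NFIA and 225, 221 and 213 in Cre + NFIA Δpro#3 at day 0. Day 7 levels were 137, 147 and 136 FPKM in ctrl, 158, 172 and 164 in Cre, 139, 128 and 148 in Cre + NFIA and 168, 169 and 169 in Cre + NFIA Δpro#3. It fell over differentiation in all 4 types, with log2 changes of -0.76 in ctrl and -0.38 in the mutant, and had the highest day 0 level of the 30 genes. Npc1, its membrane partner, was at 8.70 to 12.7 FPKM in all libraries and was not called in any day 7 comparison of cell types. Stard4, a cytosolic sterol carrier, followed the enzymes, with -0.64 ± 0.092 (SE, adjusted p = 8.73e-05) in Cre against ctrl and 0.80 ± 0.092 (SE, adjusted p = 1.1e-05) in Cre + NFIA against Cre.

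For export, the receptor Nr1h3 and both exporters followed the enzymes, and Nr1h2 did not. Nr1h3, LXRα (chromosome 2 from 91024218 to 91042991), was at 1.09, 0.749 and 1.01 FPKM in ctrl, 1.06, 0.953 and 0.984 in Cre, 1.15, 1.61 and 1.28 in Cre + NFIA and 0.552, 0.879 and 1.00 in Cre + NFIA Δpro#3 at day 0, from 14 to 31 reads. Differentiation took it to 70.3, 88.7 and 77.7 FPKM in ctrl, 26.5, 34.6 and 17.4 in Cre, 91.2, 85.3 and 90.8 in Cre + NFIA and 4.80, 9.38 and 9.99 in Cre + NFIA Δpro#3, and the 2 lower groups, Cre and Cre + NFIA Δpro#3, did not overlap. Its mean rose 83-fold in ctrl. Abca1, which loads apolipoprotein A-I, was at 11.3, 13.2 and 11.7 FPKM in ctrl, 10.03, 9.18 and 9.56 in Cre, 11.2, 12.5 and 11.1 in Cre + NFIA and 8.36, 7.98 and 8.39 in Cre + NFIA Δpro#3 at day 0. It reached 30.4, 24.8 and 29.8 FPKM in ctrl, 15.9, 16.3 and 14.7 in Cre, 33.2, 31.2 and 33.4 in Cre + NFIA and 10.8, 12.1 and 14.2 in Cre + NFIA Δpro#3 at day 7. In Cre against ctrl it differed by -0.81 ± 0.095 (SE, adjusted p = 1.96e-05) and in Cre + NFIA against Cre by 1.01 ± 0.095 (SE, adjusted p = 2.19e-06). Abcg1, which loads mature HDL, stood at 0.168, 0.179 and 0.250 FPKM in ctrl, 0.271, 0.178 and 0.280 in Cre, 0.210, 0.182 and 0.208 in Cre + NFIA and 0.248, 0.406 and 0.417 in Cre + NFIA Δpro#3 at day 0, from 8 to 31 reads. Day 7 values were 5.51, 7.19 and 7.58 FPKM in ctrl, 2.58, 3.57 and 2.05 in Cre, 7.79, 7.29 and 7.35 in Cre + NFIA and 0.840, 1.05 and 1.22 in Cre + NFIA Δpro#3. Its low day 0 level makes the log2(FPKM + 1) changes of Abcg1 smaller than the ratio of means, which was 34 in ctrl. Nr1h2, LXRβ, was at 31.1, 27.4 and 34.8 FPKM in ctrl, 26.5, 33.3 and 36.6 in Cre, 33.2, 35 and 32.3 in Cre + NFIA and 37.2, 35.7 and 33.4 in Cre + NFIA Δpro#3 at day 0. Its day 7 libraries were 31.9, 34.3 and 28.4 FPKM in ctrl, 28, 29.6 and 28.6 in Cre, 30.4, 26.1 and 28.2 in Cre + NFIA and 27.9, 32.4 and 28.8 in Cre + NFIA Δpro#3. The groups overlapped, and it was called in no comparison of cell types at either day.

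The summed level of the enzymes was set beside that of the adipocyte markers. The summed level of the 18 enzymes was 493 to 608 FPKM over the 12 day 0 libraries. At day 7 it was 1333 to 1484 in ctrl, 533 to 700 in Cre, 1456 to 1504 in Cre + NFIA and 424 to 436 in Cre + NFIA Δpro#3. Cre day 7 replicate 3, lowest in adipocyte markers, was lowest in the enzymes too, and without it 25 members were called in Cre against ctrl rather than 27 and 25 rather than 26 in Cre + NFIA against Cre. In Cre the adipocyte marker sum went from 86.6 to 105 FPKM at day 0 to 4416 to 9414 at day 7, while the enzyme sum was 524 to 545 and then 533 to 700. Each mutant day 7 library was above every day 0 library in summed adipocyte markers and below every day 0 library in summed enzymes. Among the mutant day 7 libraries replicate 1 had 864 FPKM of adipocyte markers against 1953 and 2146 in the others. Its enzyme sum was 425 FPKM against 424 and 436. A sum of FPKM gives most weight to abundant enzymes. From day 0 to day 7 in the mutant the mean enzyme sum went from 524 to 428 FPKM. The mean of Fdps alone went from 141 to 92.9 FPKM. Of the 18 enzymes 6 fell, 1 rose and 11 were not called in that comparison. Of the 9 adipocyte markers 8 were tested. In Cre against ctrl 8 were lower, beside 22.7% of all genes. In Cre + NFIA against Cre 8 were higher (27.0%) and in Cre + NFIA Δpro#3 against Cre 8 lower (10.0%).

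**Figure D5:**
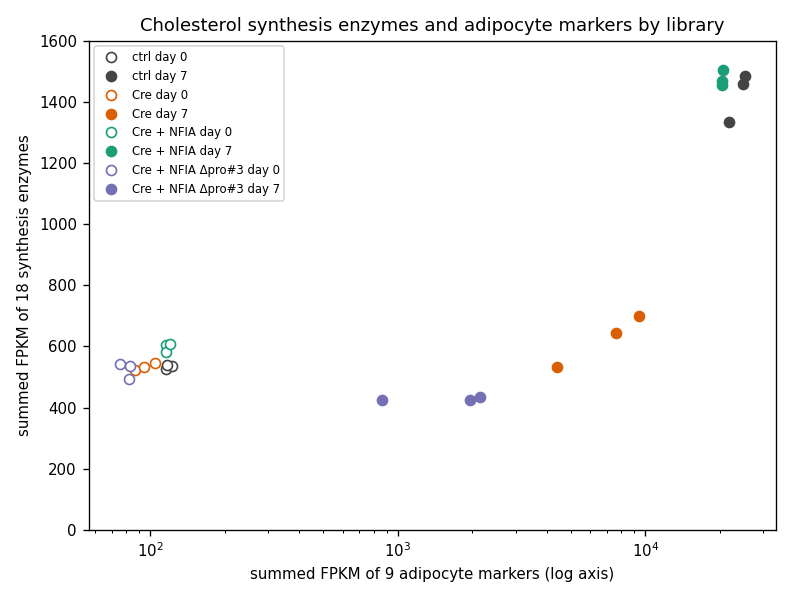
Each point is 1 library: the summed FPKM of 18 cholesterol synthesis enzymes against the summed FPKM of 9 adipocyte markers (log axis), open at day 0 and filled at day 7. The Cre + NFIA Δpro#3 day 7 libraries lie at 424 to 436 FPKM of enzymes, below the day 0 libraries at 493 to 608, and ctrl and Cre + NFIA lie at 1333 or more.

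Other marker lists also moved. The sum of 8 fibroblast or precursor markers at day 7 was 1269 to 1404 FPKM in ctrl, 1927 to 2253 in Cre, 801 to 912 in Cre + NFIA and 2104 to 2474 in Cre + NFIA Δpro#3. Of these 6 were higher and 1 lower in Cre than ctrl, beside 36.1% and 22.7% of all genes. In Cre + NFIA against Cre 7 were lower, beside 35.9%. The 8 macrophage markers summed at day 7 to 6.30 to 6.88 FPKM in ctrl, 8.43 to 10.1 in Cre, 5.96 to 7.29 in Cre + NFIA and 12.9 to 14.5 in Cre + NFIA Δpro#3, and at day 0 to 12.5 to 22.1 over all groups. Of the 4 tested, 2 were higher in Cre than ctrl, beside 36.1% of all genes. In Cre + NFIA Δpro#3 against Cre + NFIA 4 were higher, beside 40.4%. Soat1 was higher in these 2 comparisons too. In Cre + NFIA against Cre at day 7 2 of the 4 were lower (35.9% of all genes), as was Soat1. In Cre + NFIA Δpro#3 against Cre at day 7 2 were higher (7.70%), and Soat1 was not called. In Cre + NFIA against Cre at day 0 1 of the 4 was higher and 0 lower, while Soat1 was lower at -0.35. Nothing is read from these directions, and a link of Soat1 to the macrophage markers was not tested. Adgre1 was at 0 in every library, and 4 of the 8 were below 1 FPKM throughout. Of the 5 endothelial markers 3 were below 1 FPKM throughout, and their day 7 sum was 1.55 to 2.04 FPKM in ctrl, 2.65 to 2.78 in Cre, 1.98 to 2.62 in Cre + NFIA and 4.47 to 5.03 in Cre + NFIA Δpro#3. The 8 proliferation genes summed to 534 to 707 FPKM over all libraries. At day 7 3 were higher and 1 lower in Cre than ctrl (36.1% and 22.7% of all genes). At day 0 7 were higher in Cre + NFIA than Cre, 8 in Cre + NFIA than ctrl and 5 in Cre + NFIA Δpro#3 than Cre. The shares of all genes called in either direction there were 27.6%, 33.1% and 18.3%. Cre against ctrl at day 0 had 0 called. The part of these cells in the cholesterol results was not tested.

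Genes next to the pathway were examined as a list of 37, of which 36 had a row and 34 were tested. In ctrl differentiation 13 of the 34 rose and 11 fell, beside 32.9% and 38.1% of all genes. In Cre against ctrl 11 were higher and 10 lower (36.1% and 22.7% of all genes), in Cre + NFIA against Cre 13 and 9 (27.0% and 35.9%), and in Cre + NFIA Δpro#3 against Cre 3 and 5 (7.70% and 10.0%). Their medians were 0.058, 0.057, -0.010 and 0.011, near those of all genes. Among the most changed were Acss2 and Acly, which each make cytosolic acetyl-CoA, the carbon source of sterols and fatty acids. Acss2, acetyl-CoA synthetase, was at 153, 171 and 183 FPKM in ctrl, 45.5, 55.6 and 31 in Cre, 217, 228 and 236 in Cre + NFIA and 14.6, 17.7 and 20.4 in Cre + NFIA Δpro#3 at day 7, with no overlap. It differed by -1.95 ± 0.17 (SE, adjusted p = 2.68e-06) in Cre against ctrl, by 2.38 in Cre + NFIA against Cre and by -1.25 between the mutant and Cre. Acly, ATP citrate lyase, differed by -1.13, 1.04 and -0.46, and Gramd1b, which carries sterol from the plasma membrane to the endoplasmic reticulum, by -1.34, 1.64 and -0.40.

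Lipoprotein receptors of that list went both ways. Scarb1, the HDL receptor for selective uptake, was at 239, 261 and 249 FPKM in ctrl, 121, 141 and 90.05 in Cre, 220.3, 206 and 216 in Cre + NFIA and 45.5, 56.2 and 54.7 in Cre + NFIA Δpro#3 at day 7. The mutant libraries were lowest, and Cre differed from ctrl by -1.11 ± 0.13 (SE, adjusted p = 2.21e-05). Lrp1, a large endocytic receptor, was higher in Cre than ctrl by 0.92 ± 0.08 (SE, adjusted p = 2.41e-06) and lower in Cre + NFIA than Cre, at -1.42 ± 0.08 (SE, adjusted p = 4.6e-08). Nceh1, a cholesterol ester hydrolase, moved like Lrp1, with 0.54, -0.90 and 0.75 in the 3 comparisons, at 0.339 to 3.86 FPKM at day 7. Mbtps1, a protease that cuts SREBP, was higher in Cre than ctrl by 0.46 and lower in Cre + NFIA than Cre, at -0.46. Ch25h, which makes 25-hydroxycholesterol, differed by 0.63 and -0.55, at day 7 levels of at most 1.39 FPKM.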

How the data were processed

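Total RNA of 24 samples was sequenced as stranded mRNA libraries, 3 in each of 8 groups given by the sample labels. The authors aligned read pairs with STAR 2.5.3a to mm9, kept uniquely aligned pairs, counted those on the matching strand of each gene, and deposited FPKM, 1 table per library. The annotation used for counting is not given in the sources used here. Each FPKM times gene length gave whole reads after scaling (100% of values within 0.01 read), which set the library depth at 7.733 to 14.622 M reads (M, 1000000). Of 24825 rows, 26 have symbols that read as dates and are not named.

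From the FPKM, log2(FPKM + 1) was tested with limma 3.58.1 in R 4.3.3 (group means, empirical Bayes with a mean trend) for 12640 genes with at least 1 FPKM in at least 3 libraries. For comparisons within a day the model held that day's 12 libraries, otherwise all 24. P-values were Benjamini-Hochberg adjusted over all genes tested, all tests were two-sided, and a gene was called at an adjusted p under 0.05. A second rule added a change of at least 3-fold on the log2(FPKM + 1) scale. There were 17 comparisons. The steps were tested on simulated data. A log2 change on this scale understates the change of genes with low FPKM. Ratios of group means are given as folds.

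The members and all gene lists were chosen with earlier results of these data known. Every member is named, and library values are given for the regulators and exporters (Srebf2, Insig1, Insig2, Nr1h2, Nr1h3, Abca1, Abcg1) and for up to 4 called members with the largest and 4 with the smallest log2 change in 3 day 7 comparisons and in ctrl differentiation. Of the other sterol genes, up to 4 called in each direction were eligible to be named, and not all are.

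Alternatives were other pseudocounts, filters and scalings, other sets of samples, a fit without the trend, limma voom on recovered reads, the replicate number as a block, and leaving out each library. The labels number the replicates alike in every group, but same-numbered libraries did not deviate together (correlations of -0.274 to 0.201, with 0 comparisons in which every pair was over 0.1), so the fit carries no block.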

Additional observations from a re-analysis of the deposited data

Results flagged for a closer look

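The interaction of day with cell type was called for 24 members between Cre and ctrl (limma, adjusted over all genes tested). The changes over differentiation that differed most were those of Pmvk (-1.80), Insig1 (-1.69), Nr1h3 (-1.64) and Fdps (-1.55), smaller in Cre, and Soat1 (1.10), which fell in ctrl. Between Cre + NFIA and Cre it was called for 23 members. Pmvk (1.85), Nsdhl (1.62), Nr1h3 (1.55) and Sc5d (1.54) changed more in Cre + NFIA, and Soat1 differed by -1.0. Between Cre + NFIA Δpro#3 and Cre it was called for 13 members, led by Insig1 (-1.60), Nr1h3 (-1.44), Dhcr7 (-1.27) and Abcg1 (-0.98). All values are differences between 2 log2 changes, and a gene entered here because the change in 1 cell type differed from that in another by the test of the interaction itself. The Cre libraries are shared by these contrasts.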

How the results depend on the processing

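Of 272 called results for single genes, 224 were called in every alternative, and of 4827 alternative values 4611 kept their call, 216 lost it and 0 reversed. Of 300 counts of members called, 275 were within 1.5 times the main count. The exceptions were these. Day 7 Cre + NFIA against ctrl (3 called) gave 5 with a mean FPKM of at least 5, 6 with only the groups compared and 6 with limma voom, and 0 to 4 on leaving out 1 library. Day 0 Cre against ctrl (3) gave 1 after quantile normalization, 0 with only the groups compared (4 at an unadjusted p under 0.05 in limma, while limma voom called 2), and 0 to 3 on leaving out 1 library. Day 0 Cre + NFIA Δpro#3 against Cre (1) gave 2 after quantile normalization, with only the groups compared and with limma voom, and 1 to 3 on leaving out 1 library. Between the 2 forms of NFIA at day 0 (6) only the groups compared gave 10, and leaving out 1 library 1 to 4. Day 0 Cre + NFIA against ctrl (8) gave 5 to 9 on leaving out 1 library. The cause was not tested.

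With the replicate block the counts were 27, 27, 19, 27 and 3 at day 7 (Cre against ctrl, Cre + NFIA against Cre, Cre + NFIA Δpro#3 against Cre, Cre + NFIA Δpro#3 against Cre + NFIA, Cre + NFIA against ctrl), 1, 7, 1, 7 and 7 at day 0 in the same order, 28, 16, 27 and 15 over differentiation, and 24, 23 and 13 for the interactions. Day 0 Cre against ctrl, at 1 rather than 3, was the count that moved by over 1.5 times. With 3 libraries a group, changes of about 0.2 were called in some genes and not in others, and genes such as Abcg1 at day 0 rest on 8 to 31 reads.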
